A study of Homo sapiens with 18 samples.

Results

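ID1, ID2, ID3, ID4, SMAD6, BAMBI, BMPR1A, BMPR1B, BMPR2 and AMHR2 form a set of 10 genes around bone morphogenetic protein (BMP) signalling, out of 39368 genes counted. They were taken by symbol from the count tables of 2 established human cell lines derived from neuroblastoma, BE2C and Kelly, both with an amplified MYCN oncogene. AMHR2 was selected on the wide difference of its level between the hairpins in these data, so its hairpin values are given as a description with no test, and the other 9 were listed by family. Each line received the lentiviral vector pLKO-GFP as control, or 1 of 2 short hairpin RNAs, shAhR-1 and shAhR-2, against AHR, the gene of the aryl hydrocarbon receptor (AhR), a transcription factor switched on by small ligands. The 6 groups held 3 RNA sequencing libraries each, 18 in all. The series title places the receptor in the dedifferentiation of MYCN-amplified neuroblastoma. The labels do not say how cells were selected after infection, or whether separate cultures gave the 3 libraries of a group. The p-values then measure only how far these samples spread, which may be technical.

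BMPs bind pairs of type I and type II serine/threonine kinase receptors at the cell surface, and the type I receptor phosphorylates SMAD1, SMAD5 and SMAD9, which enter the nucleus with SMAD4. ID genes are the classical direct targets of these SMADs, and ID proteins are helix-loop-helix proteins without a DNA-binding region that hold E proteins away from DNA. In the sympathetic lineage from which neuroblastoma arises, BMPs start noradrenergic differentiation, and ID2 is known for its link to MYCN. SMAD6 and BAMBI are also BMP targets and act back on the pathway as inhibitors.

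AHR itself was close to the detection limit. Its counts were 4, 4 and 6 in the BE2C controls, 8, 0 and 0 with shAhR-1 and 0, 0 and 0 with shAhR-2. In Kelly they were 4, 26 and 29 in the controls, 18, 11 and 22 in the libraries labelled shAhR-1 and 0, 4 and 0 with shAhR-2. Pooled over a group, the AHR rate relative to control was 0.952 in the libraries labelled Kelly shAhR-1 (95% exact interval 0.641 to 1.41) and 0.574 in BE2C with shAhR-1 (0.209 to 1.47), so no fall was shown in either. With shAhR-2 the ratio was 0.0655 in Kelly (0.0173 to 0.177) and 0 in BE2C, with an upper limit of 0.27. These intervals cover counting error only. They take each count as independent, and are too narrow if both mates of a read pair were counted. The directions given below for shAhR-1 are therefore, in both lines, differences of the libraries labelled so from their controls.

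Libraries held 32799682 to 45469353 counts, of which mitochondrially encoded genes took 14.5% to 25.1%. In BE2C these genes took 18.8% to 19.4% in the controls and 24.3% to 24.9% with shAhR-1. Replicate 1 of BE2C shAhR-2 stood apart from its group, with 25.1% mitochondrial counts against 20.5% in both of the others. Its chi-square per degree of freedom against them was 20.9 and 22.8, where every other pair within a group lay between 2.81 and 6.59. Without it, each of the 9 members tested kept its direction and call in BE2C with shAhR-2, and BAMBI, for example, stood at a log2 fold change of 2.56 against 2.61 with it. The adrenergic neuroblastoma markers PHOX2A, HAND2, GATA3, ISL1, TH, DBH and MYCN were all detected in all 6 groups, at a summed 2030 to 8160 CPM (counts scaled to a common library size).

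Promoter sequence is shown for 5 members whose levels carry the results below: ID1, which was high in BE2C, SMAD6 and BAMBI, which had the largest increases with shAhR-2 in BE2C among the 9 members tested, BMPR2, which rose in every hairpin comparison, and AMHR2, which had the widest range. The windows are the 250 bases before the RefSeq start on GRCh38.p14, all on the plus strand, less any base that lies in a GENCODE release 29 exon. Capitals mark the GC-rich SMAD element GGCGCC and the core of the AhR response element, GCGTG, read on both strands, so that CACGC marks the latter on the other strand. ID1 is at chr20:31605039-31605282, SMAD6 at chr15:66701986-66702227, BAMBI at chr10:28677271-28677341, BMPR2 at chr2:202376077-202376326 and AMHR2 at chr12:53423605-53423854.
ID1: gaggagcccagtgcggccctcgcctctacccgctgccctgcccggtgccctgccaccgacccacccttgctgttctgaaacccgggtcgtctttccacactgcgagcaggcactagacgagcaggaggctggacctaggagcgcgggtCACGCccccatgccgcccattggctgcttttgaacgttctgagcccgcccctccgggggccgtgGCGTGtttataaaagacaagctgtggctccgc
SMAD6: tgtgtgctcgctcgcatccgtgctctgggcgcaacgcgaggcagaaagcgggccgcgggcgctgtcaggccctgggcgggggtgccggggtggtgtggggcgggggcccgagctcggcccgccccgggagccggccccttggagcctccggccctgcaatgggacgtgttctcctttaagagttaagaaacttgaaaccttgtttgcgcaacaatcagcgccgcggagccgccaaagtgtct
BAMBI: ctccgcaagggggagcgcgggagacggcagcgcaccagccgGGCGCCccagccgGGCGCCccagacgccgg
BMPR2: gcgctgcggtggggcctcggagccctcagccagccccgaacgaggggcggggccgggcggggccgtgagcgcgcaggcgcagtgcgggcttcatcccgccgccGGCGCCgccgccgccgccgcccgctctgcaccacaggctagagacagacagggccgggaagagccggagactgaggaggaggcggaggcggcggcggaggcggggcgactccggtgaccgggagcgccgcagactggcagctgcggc
AMHR2: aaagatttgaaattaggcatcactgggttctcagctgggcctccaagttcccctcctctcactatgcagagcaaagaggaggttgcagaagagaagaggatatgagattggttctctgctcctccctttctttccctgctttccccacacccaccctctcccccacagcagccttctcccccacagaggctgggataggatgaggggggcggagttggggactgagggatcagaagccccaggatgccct

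Over the full 250 bases, GGCGCC occurred 3 times before BAMBI, at bases −209, −196 and −181 from the start, and once before BMPR2, at −147. It was found in 16.4% of 35116 RefSeq windows of this length, and in 3.08% of them at least 2 times. GCGTG occurred 2 times each before ID1 (−102 and −38), ID2 (−143 and −53) and ID3 (−50 and −8) and once before BMPR1A (−58). It was found in 32.2% of the windows, and at least 2 times in 10.2%. The windows of ID4, SMAD6, BMPR1B and AMHR2 held neither, which says only that these letters are absent there. The motifs do not overlap each other in these windows. The AMHR2 window was 56% GC with 1 CpG, while that of BAMBI was 81.2% GC with 41 CpG, against medians of 58% and 11 over all windows.

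In the control cells the lines differed in 9 of the 10 members, 7 of them higher in BE2C and 2 higher in Kelly, where 76.2% of 17136 genes tested differed, 37.2% higher in BE2C and 39.0% lower. CPM ranges of the controls did not overlap for all 10 members, as for 77.2% of the genes. The median log2 difference, BE2C minus Kelly, was 0.55 over the members and −0.03 over all genes tested. ID1 showed a wide gap, with 87.2, 77.3 and 79.1 CPM in the BE2C controls and 9.81, 11.2 and 10.1 in the Kelly controls (log2 difference 2.97 ± 0.065 (SE), adjusted p = 5.46e-38). BAMBI was 2.84 ± 0.077 and SMAD6 2.07 ± 0.060 higher in BE2C on the log2 scale (adjusted p = 3.2e-34 and 7.62e-33). Kelly held more ID4 (−1.09 ± 0.20, adjusted p = 2.74e-06) and more AMHR2 (−5.69 ± 0.46, adjusted p = 1.15e-15). The size of the AMHR2 difference is uncertain, since its BE2C controls held 0, 0 and 4 counts. Its pooled rate was 56.3 times as high in the Kelly controls (95% exact interval 21.7 to 208, counting error only). For BMPR1B the difference missed the threshold (−0.13 ± 0.060, adjusted p = 0.0548, 95% interval −0.24 to −0.01). All adjusted p-values here and below come from the quasi-likelihood test of edgeR, adjusted after Benjamini and Hochberg over all genes tested.

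Levels can be compared between genes only per length, as CPM per kb of exon. In the BE2C controls the order was ID2 (103), ID1 (65.9), ID3 (16.7), BAMBI (15.8), BMPR2 (10.4), SMAD6 (10.3), BMPR1A (6.04), BMPR1B (3.63), ID4 (0.553) and AMHR2 (0.00961). The ranges of ID3 and BAMBI overlapped, as did those of BMPR2 and SMAD6. In the Kelly controls the order was ID2 (62.4), ID3 (13.6), ID1 (8.40), BMPR2 (5.78), BMPR1A (4.65), BMPR1B (3.97), SMAD6 (2.45), BAMBI (2.21), ID4 (1.18) and AMHR2 (0.534), and only SMAD6 and BAMBI overlapped. ID2 was first in all 6 groups. In BE2C with shAhR-2, BAMBI moved from the fourth place to the second at 95.5 CPM per kb, above ID1 at 49.2.

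**Figure D1:**
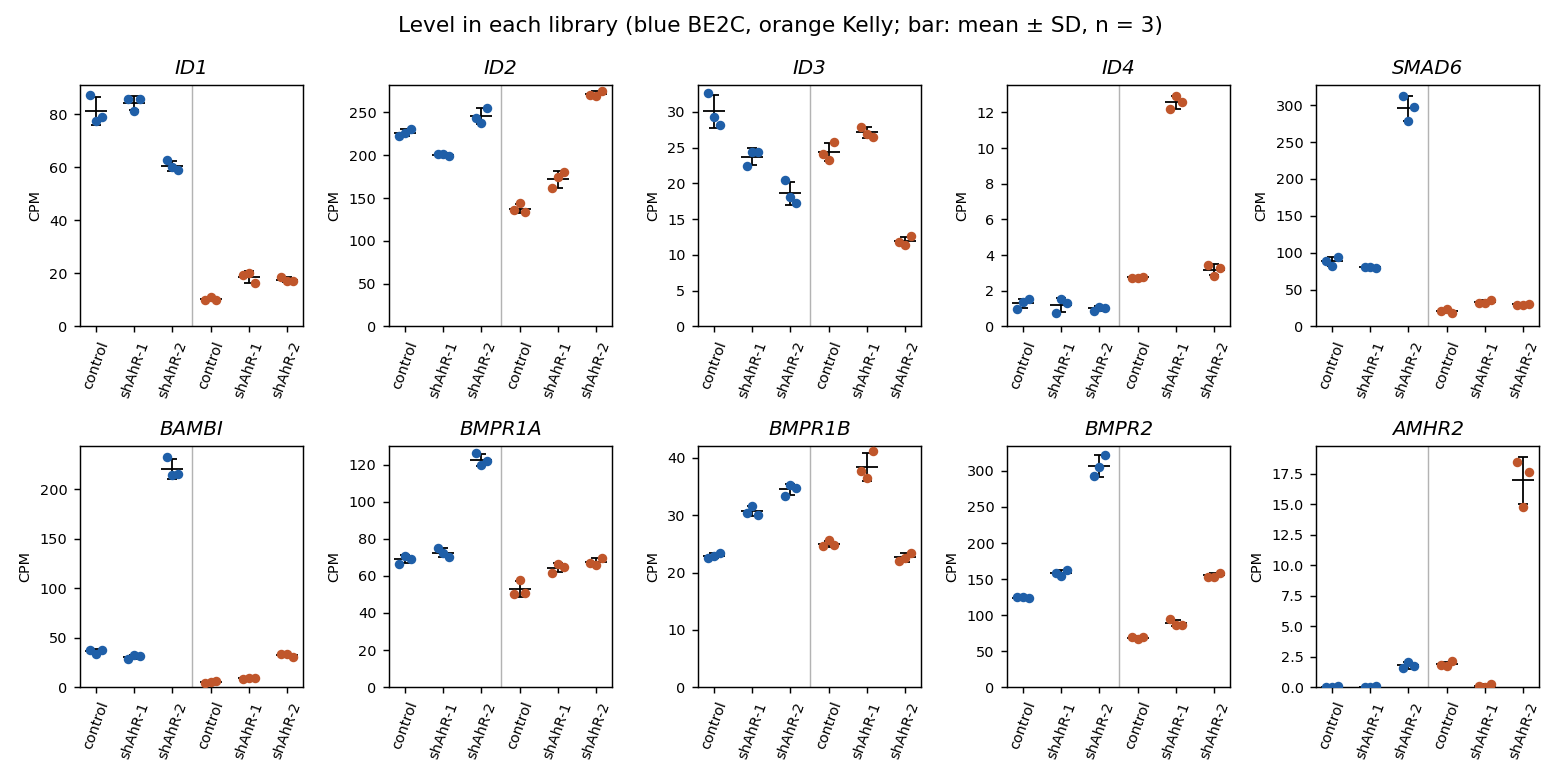
Level of each of the 10 members in CPM (vertical axis, linear, its own scale per gene) in the 18 libraries, by group; points are libraries, bars the mean ± SD of 3. BAMBI in BE2C sits at 215 to 233 CPM with shAhR-2 and at 38.0 or lower in the 6 other BE2C libraries, and AMHR2 in Kelly at 14.8 to 18.4 CPM with shAhR-2 and at 2.12 or lower elsewhere in Kelly.

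With shAhR-1 in BE2C, the members moved little. BMPR1B and BMPR2 rose and ID2, ID3, SMAD6 and BAMBI fell, while ID1, ID4 and BMPR1A did not pass the test. That is 2 higher and 4 lower of 9 tested, where 25.2% of 15732 genes were called higher and 27.1% lower, 52.3% in all. CPM ranges lay apart from those of the controls for 6 of the 9, as for 57.8% of genes. The median log2 fold change was −0.12 over the members and 0.01 over all genes.

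With shAhR-2 in BE2C, 6 of the 9 rose (ID2, SMAD6, BAMBI, BMPR1A, BMPR1B and BMPR2) and 2 fell (ID1 and ID3), where 38.0% of genes were called higher and 37.2% lower, 75.1% in all. Ranges lay apart for 8 of the 9, as for 77.1% of genes. Their median was 0.60, against 0.03 over all genes. In the Kelly libraries labelled shAhR-1 all 9 members tested were higher than in the controls, where 29.6% of 15871 genes were called higher and 31.0% lower, 60.5% in all. Ranges lay apart for all 9, as for 63.2% of genes, and the median was 0.62 against 0.0034 over all genes. In Kelly with shAhR-2, 6 rose (ID1, ID2, SMAD6, BAMBI, BMPR1A and BMPR2) and 2 fell (ID3 and BMPR1B), where 37.2% of genes were called higher and 38.2% lower, 75.4% in all. Ranges lay apart for all 9, as for 77.2% of genes, and the median was 0.50 against −0.01. Within a line both hairpins are compared with the same 3 controls, so their values are not independent. As these are whole cultures, more RNA per cell and a larger share of cells with high levels cannot be told apart.

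**Figure D2:**
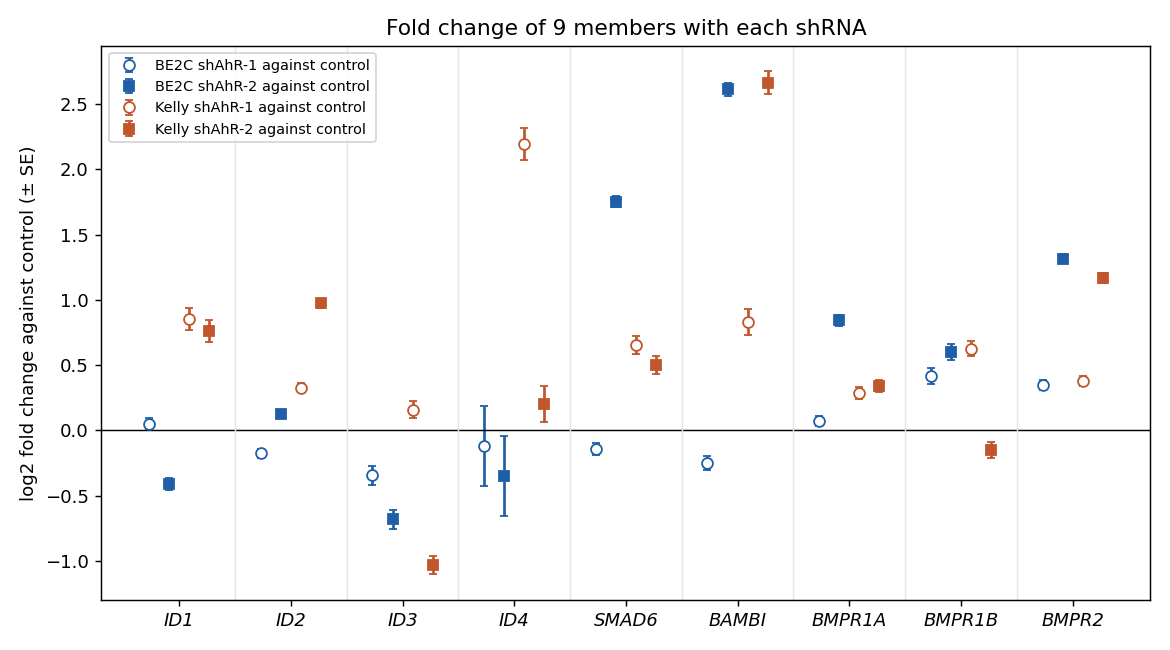
Log2 fold change from the pLKO-GFP libraries of each line (vertical axis, ± SE from the fit, 3 libraries a group) for the 9 members tested; blue BE2C, orange Kelly, open circles shAhR-1, filled squares shAhR-2. BAMBI with shAhR-2 lies at 2.61 in BE2C and 2.66 in Kelly, and ID4 is far from 0 only in the Kelly libraries labelled shAhR-1.

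Among the ID genes, ID2 was the most abundant, and it rose with shAhR-2 in both lines. Its levels were 223, 226 and 230 CPM in the BE2C controls, 202, 201 and 199 with shAhR-1 and 243, 238 and 256 with shAhR-2. The 3 BE2C groups did not overlap, with shAhR-1 lowest and shAhR-2 highest (log2 fold changes −0.18 ± 0.032, adjusted p = 2.07e-05, and 0.13 ± 0.032, adjusted p = 0.00055). In Kelly ID2 read 136, 144 and 133 CPM in the controls, 161, 174 and 180 in the libraries labelled shAhR-1 and 270, 269 and 275 with shAhR-2. Each Kelly group again lay apart from the others, and the increases were 0.33 ± 0.034 (adjusted p = 5e-12) and 0.97 ± 0.033 (adjusted p = 3.69e-31). Between the hairpins ID2 was lower with shAhR-1 in both lines, by a log2 difference of −0.30 ± 0.032 in BE2C (adjusted p = 2.89e-10) and −0.65 ± 0.033 in Kelly (adjusted p = 7.69e-24). ID2 shares 38 exonic bases, 1.72% of its exons, with the antisense gene ID2-AS1.

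ID1, a target gene that BMPs induce in many cell types, went opposite ways in the lines with shAhR-2. In BE2C it read 62.6, 60.3 and 59.0 CPM with shAhR-2, all below the 77.3 to 87.2 of the controls (−0.41 ± 0.045, adjusted p = 8.14e-10). With shAhR-1 the BE2C levels of 85.8, 81.4 and 85.7 CPM lay within the range of the controls (0.05 ± 0.045, adjusted p = 0.341, 95% interval −0.03 to 0.14). In Kelly ID1 was 19.5, 20.2 and 16.3 CPM in the libraries labelled shAhR-1 and 18.6, 17.1 and 17.2 with shAhR-2, all above the controls at 9.81 to 11.2. These increases were 0.85 ± 0.084 (adjusted p = 7.68e-13) and 0.76 ± 0.083 (adjusted p = 1.11e-11). Between the Kelly hairpins no difference in ID1 passed the test (0.09 ± 0.079, adjusted p = 0.281, 95% interval −0.06 to 0.25), although it did so without replicate 3 of the libraries labelled shAhR-1 (0.19, adjusted p = 0.0357).

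ID3 fell with shAhR-2 in both lines. In BE2C it stood at 32.7, 29.3 and 28.2 CPM in the controls, 22.4, 24.4 and 24.4 with shAhR-1, and 20.4, 18.2 and 17.2 with shAhR-2. All 6 hairpin libraries lay below the controls (−0.34 ± 0.072, adjusted p = 0.000136, and −0.68 ± 0.072, adjusted p = 3.53e-10). In Kelly the ID3 level was 24.1, 23.3 and 25.7 CPM in the controls, 27.9, 26.9 and 26.5 in the libraries labelled shAhR-1, and 11.8, 11.4 and 12.6 with shAhR-2. The fall with shAhR-2 was 1.03 on the log2 scale (−1.03 ± 0.069, adjusted p = 4.32e-19). The increase with shAhR-1 was small (0.16 ± 0.065, adjusted p = 0.0305) and was lost without a filter on low counts (adjusted p = 0.0701) and on leaving out replicate 1 (0.0825) or 2 (0.126) of the controls, or replicate 1 (0.104) or 2 (0.0548) of the shAhR-1 libraries.

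ID4, the member of the family with a main role in neural cells, was the least abundant and stood out in 1 group. In Kelly it was 2.74, 2.73 and 2.80 CPM in the controls, 12.2, 12.9 and 12.6 in the libraries labelled shAhR-1, and 3.42, 2.84 and 3.29 with shAhR-2. The 3 libraries labelled shAhR-1 were thus the only ones above 3.42 CPM among all 18 (log2 fold change 2.19 ± 0.12, adjusted p = 9.61e-22), and only 0.75% of genes tested had a larger increase there. With shAhR-2 ID4 did not pass the test in Kelly (0.20 ± 0.14, adjusted p = 0.179). In BE2C it was 0.746 to 1.56 CPM in all 9 libraries, with no change detectable at this depth (−0.12 ± 0.31, adjusted p = 0.776, and −0.35 ± 0.31, adjusted p = 0.308).

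The summed ID level, in CPM per kb, was 186 ± 4.15 (SD, n = 3) in the BE2C controls, 173 ± 1.36 with shAhR-1 and 171 ± 3.57 with shAhR-2. In Kelly it was 85.6 ± 2.37 in the controls, 114 ± 3.33 in the libraries labelled shAhR-1 and 145 ± 1.73 with shAhR-2. ID2 made up 55.3% of this sum in the BE2C controls and 65% with shAhR-2, and 72.9% in the Kelly controls and 84.7% with shAhR-2. ID1 made up 35.4% in the BE2C controls but 9.81% in the Kelly controls, and ID3 went from 15.9% to 4.57% in Kelly with shAhR-2.

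**Figure D3:**
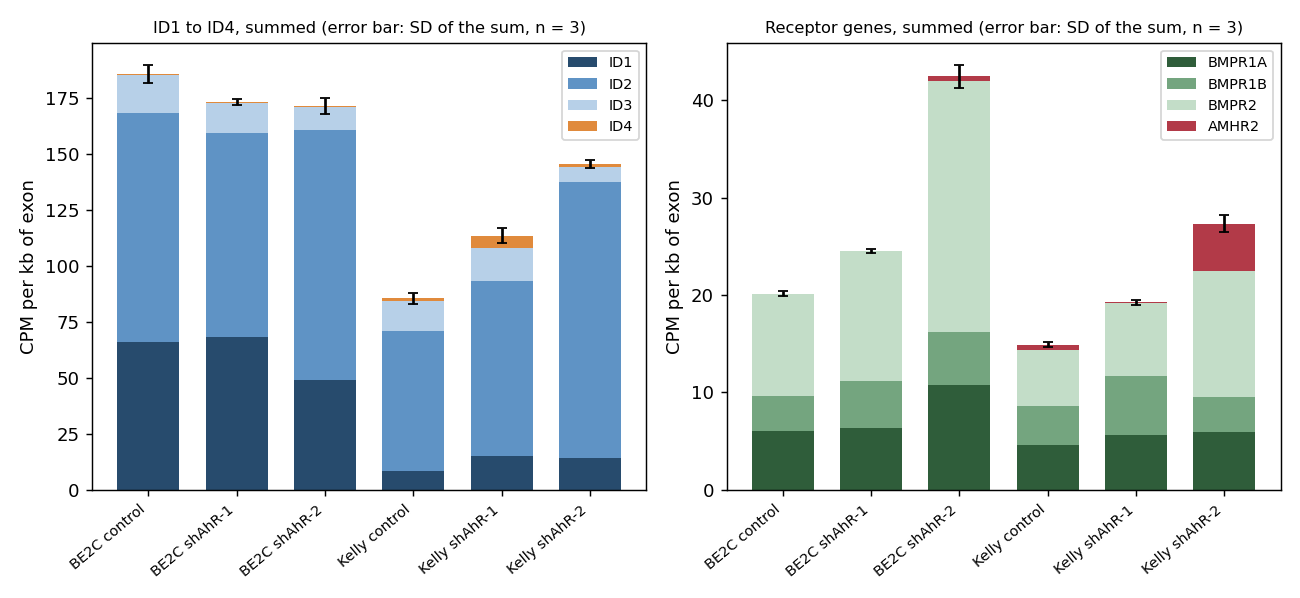
Stacked mean levels in CPM per kb of exon (vertical axis from 0) of ID1 to ID4 (left) and of BMPR1A, BMPR1B, BMPR2 and AMHR2 (right) in the 6 groups, with the SD of the sum over 3 libraries. The ID sum is 171 to 186 in BE2C and 85.6 to 145 in Kelly, and AMHR2 takes 17.6% of the receptor sum in Kelly with shAhR-2.

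BAMBI, a receptor-like membrane protein without a kinase domain that blocks type I receptors, rose with shAhR-2 in both lines. Its levels in BE2C were 37.6, 33.8 and 38.0 CPM in the controls, 28.2, 32.1 and 31.8 with shAhR-1, and 233, 215 and 215 with shAhR-2. The shAhR-2 libraries lay far above the other 6 (2.61 ± 0.048, 6.11-fold, adjusted p = 2.7e-30), and the shAhR-1 libraries just below the controls (−0.25 ± 0.053, adjusted p = 0.000154). In Kelly BAMBI went from 4.38, 5.0 and 5.96 CPM in the controls to 8.13, 9.33 and 9.46 in the libraries labelled shAhR-1 and 33.2, 33.2 and 30.7 with shAhR-2. The 3 Kelly groups did not overlap (0.83 ± 0.099, adjusted p = 3.32e-10, and 2.66 ± 0.088, 6.33-fold, adjusted p = 9.21e-32). Among all genes, 4.84% rose more with shAhR-2 in BE2C and 1.91% in Kelly.

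SMAD6, the inhibitory SMAD that acts mainly on BMP receptors, rose with shAhR-2 too, more so in BE2C. It read 88.6, 82.2 and 94.7 CPM in the BE2C controls, 81.0, 80.2 and 79.8 with shAhR-1 and 312, 278 and 297 with shAhR-2. The increase with shAhR-2 was 1.75 ± 0.042 (adjusted p = 3.42e-27). The shAhR-1 libraries lay below the controls by a small step (−0.14 ± 0.044, adjusted p = 0.00686), which was lost without control replicate 3 (−0.09, adjusted p = 0.106). In Kelly SMAD6 was 21.2, 24.0 and 17.8 CPM in the controls, 31.6, 31.5 and 35.6 in the libraries labelled shAhR-1, and 29.2, 29.6 and 31.1 with shAhR-2. Both Kelly hairpin groups lay above the controls (0.65 ± 0.070, adjusted p = 1.16e-11, and 0.50 ± 0.069, adjusted p = 7.44e-09). Between them SMAD6 differed by 0.15 ± 0.067 (adjusted p = 0.0408), a call lost with RLE size factors (adjusted p = 0.0797), with a mean CPM of at least 1 (0.0733), in DESeq2 (0.147) and without replicate 3 of shAhR-1 (0.257) or replicate 1 (0.122) or 2 (0.101) of shAhR-2.

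Of the receptors, BMPR2, the main type II receptor for BMPs, rose in all 4 comparisons. It was 124.5, 124.8 and 123.6 CPM in the BE2C controls, 158, 154 and 163 with shAhR-1 and 293, 305 and 322 with shAhR-2. In Kelly it was 69.6, 66.5 and 70.04 CPM in the controls, 94.5, 87.0 and 85.7 in the libraries labelled shAhR-1 and 153, 153 and 159 with shAhR-2. In both lines the 3 groups were ordered control, shAhR-1, shAhR-2 with no overlap. The log2 fold changes were 0.35 ± 0.036 (adjusted p = 5.12e-10) and 1.31 ± 0.035 (adjusted p = 6.41e-26) in BE2C, and 0.38 ± 0.038 (adjusted p = 1.94e-12) and 1.17 ± 0.037 (adjusted p = 9.59e-33) in Kelly, shAhR-1 first.

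BMPR1A, a widely expressed type I receptor, was 66.5, 70.9 and 69.3 CPM in the BE2C controls, 75.2, 72.3 and 70.1 with shAhR-1 and 126, 120 and 122 with shAhR-2. Only the shAhR-2 group lay above the controls (0.84 ± 0.040, adjusted p = 5.16e-19), and the shAhR-1 difference missed the threshold (0.07 ± 0.042, adjusted p = 0.149). In Kelly it was 50.3, 57.8 and 50.9 CPM in the controls, 61.6, 66.6 and 64.9 in the libraries labelled shAhR-1 and 66.8, 65.8 and 69.6 with shAhR-2, and rose by 0.29 ± 0.046 (adjusted p = 4.54e-07) and 0.34 ± 0.046 (adjusted p = 3.52e-09). BMPR1A counts are uncertain, since 12.8% of the 50-base stretches of its longest transcript recur in other genes. The pseudogene BMPR1AP1 alone holds 7.25% of all stretches of this transcript.

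BMPR1B, the type I receptor with a more restricted expression, differed between the lines with shAhR-2. In BE2C it was 22.5, 22.97 and 23.4 CPM in the controls, 30.4, 31.7 and 30.0 with shAhR-1 and 33.4, 35.3 and 34.8 with shAhR-2, and all 6 hairpin libraries lay above the controls (0.42 ± 0.060, adjusted p = 4.19e-07, and 0.60 ± 0.059, adjusted p = 5.92e-11). In Kelly it was 24.7, 25.7 and 24.8 CPM in the controls, 37.7, 36.4 and 41.2 in the libraries labelled shAhR-1 and 22.0, 22.5 and 23.4 with shAhR-2. The libraries labelled Kelly shAhR-1 were higher by 0.62 ± 0.058 (adjusted p = 1.75e-13). The fall with shAhR-2 was slight (−0.15 ± 0.060, adjusted p = 0.0227). It was lost with RLE size factors (adjusted p = 0.0523), with a mean CPM of at least 1 (0.0649), in DESeq2 (0.0635) and without control replicate 2 (0.0676) or replicate 1 (0.0815) or 2 (0.0558) of shAhR-2.

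AMHR2 encodes the type II receptor for anti-Müllerian hormone, which signals through the same type I receptors and SMADs as BMPs. Its counts were 0, 0 and 4 in the BE2C controls, 1, 0 and 4 with shAhR-1, and 67, 94 and 80 with shAhR-2. In Kelly they were 81, 72 and 82 in the controls, 4, 2 and 10 in the libraries labelled shAhR-1, and 754, 637 and 814 with shAhR-2. The 3 Kelly groups did not overlap, with shAhR-1 lowest and shAhR-2 highest, and in BE2C the shAhR-2 libraries were the only ones above 4 counts. As a description, the pooled rate with shAhR-2 was 121 times that with shAhR-1 in Kelly and 42.9 times in BE2C, where 5 counts in all stood behind the shAhR-1 rate. Against the controls it was 9.06 times as high in Kelly with shAhR-2 and 53.9 times in BE2C, with 4 counts in all in the BE2C controls, and in the Kelly libraries labelled shAhR-1 it was 0.075 of the control.

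Per kb, AMHR2 at 4.82 ± 0.54 CPM (SD, n = 3) exceeded BMPR1B at 3.59 ± 0.115 in Kelly with shAhR-2, without overlap, and made up 17.6% of the summed level of the 4 receptors there, against 3.58% in the Kelly controls and 1.2% in BE2C with shAhR-2. AMH, the ligand of this receptor, was named after its values were seen. It was called higher with shAhR-2 in both lines (0.39 ± 0.080, adjusted p = 4.94e-05, in BE2C and 0.46 ± 0.15, adjusted p = 0.00446, in Kelly, where it was lost without replicate 2 of shAhR-2, at 0.0608), lower in the libraries labelled Kelly shAhR-1 (−0.82 ± 0.16, adjusted p = 2.47e-05), and not called in BE2C with shAhR-1 (−0.10 ± 0.082, adjusted p = 0.313). The summed receptor level in CPM per kb was 20.1 ± 0.249 (SD, n = 3) in the BE2C controls, 24.5 ± 0.231 for shAhR-1 and 42.5 ± 1.18 for shAhR-2. In Kelly it was 14.9 ± 0.269, 19.3 ± 0.289 and 27.3 ± 0.898 in the same order.

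Compared directly, the hairpins differed in 8 of 9 members in BE2C, where 72.4% of genes differed (35.9% higher and 36.5% lower with shAhR-1), with ID1 and ID3 higher and ID2, SMAD6, BAMBI, BMPR1A, BMPR1B and BMPR2 lower with shAhR-1. Their ranges lay apart for 8 of 9 members and 75.2% of genes. In Kelly 7 of 9 differed, where 77.4% of genes did (39.3% higher and 38.2% lower with shAhR-1), with ID3, ID4, SMAD6 and BMPR1B higher and ID2, BAMBI and BMPR2 lower in the libraries labelled shAhR-1. Ranges lay apart for 7 of 9 members and 79.0% of genes there. BAMBI had the widest gap of the 9 in BE2C (−2.86 ± 0.049, adjusted p = 4.24e-31), and ID4 in Kelly (1.99 ± 0.12, adjusted p = 4.41e-21), followed there by BAMBI (−1.84 ± 0.083, adjusted p = 3.85e-26).

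The response to a hairpin was also compared between the lines, as the change in BE2C minus the change in Kelly in 1 fit of all 18 libraries. With shAhR-1 the difference was negative and past the threshold for 7 of 9 members (ID1, ID2, ID3, ID4, SMAD6, BAMBI and BMPR1A), where 18.2% of genes were called lower and 17.5% higher, 35.7% in all. It was widest for ID4 (−2.31 ± 0.27, adjusted p = 1.72e-09) and BAMBI (−1.07 ± 0.11, adjusted p = 4.05e-11), and missed the threshold for BMPR2. For BMPR1B it lay at the threshold (−0.20 ± 0.083, adjusted p = 0.0551) and passed with RLE size factors (adjusted p = 0.0337), a minimum mean CPM of 1 (0.0236), halved counts (0.0493), in DESeq2 (0.0226) and without replicate 2 of Kelly shAhR-1 (0.0341). With shAhR-2 the difference was positive for 5 members (ID3, SMAD6, BMPR1A, BMPR1B and BMPR2) and negative for 2 (ID1 and ID2). Of all genes 28.8% were called higher and 25.8% lower, 54.7% in all. ID3 fell in both lines, less in BE2C (−0.68) than in Kelly (−1.03). The BMPR2 call (0.13, adjusted p = 0.0326) was lost under 4 other settings, with adjusted p up to 0.555, and on leaving out any of 9 libraries, with adjusted p from 0.0542 to 0.184. SMAD6 differed by 1.23 ± 0.083 (adjusted p = 8.73e-18) and ID1 by −1.19 ± 0.090 (adjusted p = 5.34e-16). BAMBI showed no such difference past the threshold (−0.07 ± 0.098, adjusted p = 0.58, 95% interval −0.26 to 0.12), nor did ID4 (−0.57 ± 0.28, adjusted p = 0.0857), which passed without replicate 1 of the BE2C controls (−0.73, adjusted p = 0.0304).

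The partners of the receptors and ID proteins were taken from lists of the pathway. Among the SMADs that carry the BMP signal, SMAD9 fell with shAhR-1 and rose with shAhR-2 in both lines. Its log2 fold changes were −0.97 ± 0.037 (adjusted p = 8.44e-21) and 0.31 ± 0.036 (adjusted p = 2.35e-09) in BE2C, and −0.85 ± 0.046 (adjusted p = 1.92e-22) and 0.38 ± 0.042 (adjusted p = 2.13e-11) in Kelly, shAhR-1 first. SMAD4, the shared partner, fell in all 4 comparisons (−0.44 and −0.28 in BE2C, −0.44 and −0.42 in Kelly). SMAD1 rose with shAhR-2 in BE2C (0.93) and in both Kelly comparisons (0.65 and 0.63), and SMAD5 fell in all but BE2C with shAhR-2, where it rose by 0.16. Of the 6 transducers with SMAD2 and SMAD3 included, 0 rose and 3 fell with shAhR-1 and 5 rose and 1 fell with shAhR-2 in BE2C, and 3 rose and 3 fell in each Kelly comparison. Of all genes, shAhR-1 had 52.3% called in BE2C and 60.5% in Kelly, and shAhR-2 had 75.1% and 75.4%.

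E proteins, the DNA-binding partners that ID proteins hold back, went down with shAhR-2 in both lines. TCF3 fell by 1.18 ± 0.034 on the log2 scale in BE2C (adjusted p = 5.21e-25) and by 1.13 ± 0.032 in Kelly (adjusted p = 8.49e-35). TCF12 fell by 0.71 ± 0.034 and 1.13 ± 0.034 (adjusted p = 6.06e-19 and 7.49e-34), and TCF4 by 0.29 ± 0.030 and 0.74 ± 0.028 (adjusted p = 2.14e-10 and 1.6e-29). With shAhR-1 all 3 were higher in Kelly (0.31, 0.52 and 0.44 for TCF3, TCF12 and TCF4), and TCF12 (0.29) and TCF4 (0.52) rose in BE2C, where TCF3 did not pass the test (0.01 ± 0.033, adjusted p = 0.734). Between the hairpins each of the 3 was higher with shAhR-1 in both lines, by 0.81 to 1.19 in BE2C and 1.17 to 1.65 in Kelly. Of the list of E proteins and other basic helix-loop-helix factors, 3 rose and 2 fell of 7 measured with shAhR-1 in BE2C, and 2 rose and 5 fell with shAhR-2. In Kelly 7 rose and 1 fell of 8 with shAhR-1, and 2 rose and 5 fell with shAhR-2, and the list medians were 0.09 and −0.51 (BE2C) and 0.41 and −0.85 (Kelly). Of all genes 25.2% were higher and 27.1% lower with shAhR-1 in BE2C and 38.0% and 37.2% with shAhR-2, and in Kelly 29.6% and 31.0%, then 37.2% and 38.2%. HAND2, a factor of the sympathetic lineage, fell in all 4 comparisons, by 0.23 and 2.18 in BE2C and 0.23 and 1.38 in Kelly. HAND1 rose with both hairpins in Kelly (0.38 and 1.26), while in BE2C it fell with shAhR-1 (−0.28) and rose with shAhR-2 (1.07). NEUROD1 rose with both in Kelly (0.74 and 0.65). TWIST1 rose with both in BE2C (0.20 and 0.22), while in Kelly it rose with shAhR-1 (0.49) and fell with shAhR-2 (−0.96).

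**Figure D4:**
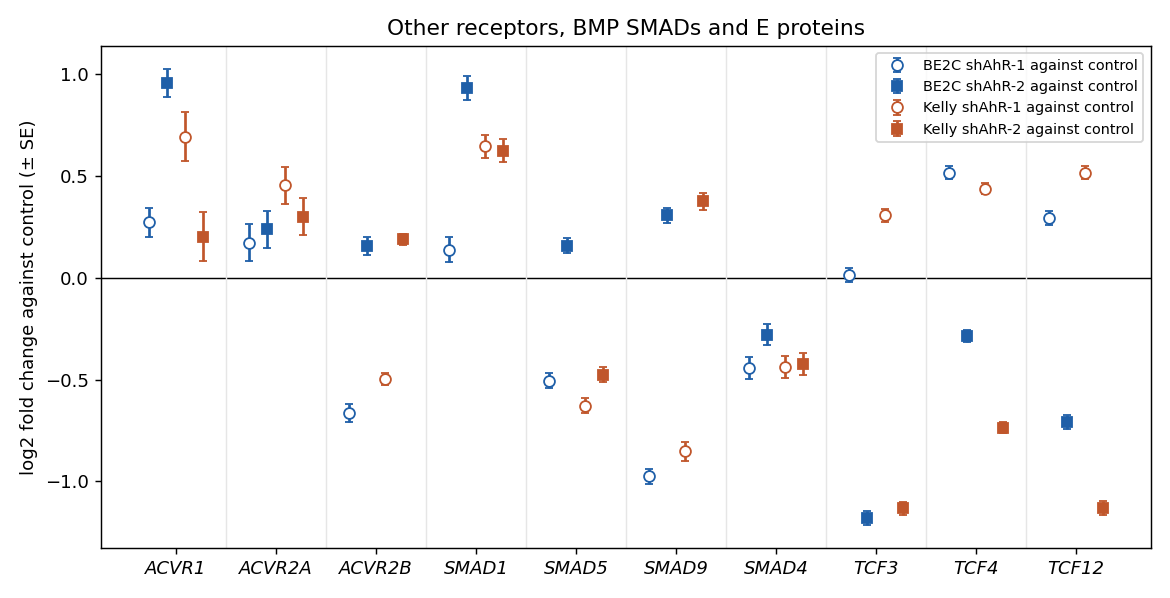
Log2 fold change from the pLKO-GFP libraries of each line (vertical axis, ± SE) for other receptors (ACVR1, ACVR2A, ACVR2B), the BMP SMADs and 3 E proteins; blue BE2C, orange Kelly, open circles shAhR-1, filled squares shAhR-2. SMAD9 lies at −0.97 and −0.85 with shAhR-1 and at 0.31 and 0.38 with shAhR-2, and TCF3 at −1.18 and −1.13 with shAhR-2.

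Among other receptors and co-receptors in BE2C, 4 rose and 4 fell of 11 measured with shAhR-1 and 9 rose and 2 fell with shAhR-2, where 52.3% and 75.1% of all genes were called. In Kelly 6 rose and 5 fell, then 6 rose and 3 fell, where 60.5% and 75.4% were. List medians were 0.17 and 0.76 in BE2C and 0.24 and 0.20 in Kelly. ACVR1, a type I receptor for BMPs, rose in BE2C with both hairpins (0.27 and 0.96) and in the Kelly libraries labelled shAhR-1 (0.69). ACVR2B, a type II receptor, fell with shAhR-1 (−0.66 in BE2C and −0.50 in Kelly) and rose with shAhR-2 (0.16 and 0.19). ACVR2A rose in both Kelly comparisons (0.46 and 0.30) and in BE2C with shAhR-2 (0.24, adjusted p = 0.0167), a call lost without control replicate 1 (0.11) or shAhR-2 replicate 3 (0.156). In BE2C, TGFBR2, the type II receptor for TGF-beta, rose with both hairpins (0.96 and 1.74) and the repulsive guidance molecule RGMB, a BMP co-receptor, fell (−0.37 and −0.42). In Kelly TGFBR2 rose with shAhR-1 (1.49) and fell with shAhR-2 (−1.53), and RGMB fell with shAhR-1 (−0.26) and rose with shAhR-2 (0.48). In Kelly the activin type I receptor ACVR1B rose (0.24 and 1.01) and the endothelial type I receptor ACVRL1 fell (−3.36 and −0.98). In BE2C ACVR1B also rose with both (0.19 and 0.76), while ACVRL1 fell with shAhR-1 (−0.92) and rose with shAhR-2 (1.55).

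Among ligands, Kelly expressed GDF6 and BMP7 at levels that BE2C did not reach. GDF6, a BMP family ligand, rose from 5.02 CPM in the Kelly controls to 9.86 in the libraries labelled shAhR-1 and 29.3 with shAhR-2 (0.97 ± 0.095, adjusted p = 6.61e-13, and 2.53 ± 0.086, adjusted p = 2.52e-31). BMP7 fell from 157 CPM to 122 and 101 (−0.36 ± 0.032, adjusted p = 4.74e-14, and −0.65 ± 0.033, adjusted p = 5.65e-24). In BE2C, BMP7 stood at 1.19 CPM in the controls, and GDF6 did not pass the filter on low counts. Of the ligands measured, 2 rose and 2 fell of 10 with shAhR-1 and 5 rose and 4 fell with shAhR-2 in BE2C, and 4 rose and 2 fell of 9, then 4 rose and 3 fell, in Kelly. All genes were called at 52.3% and 75.1% in BE2C and at 60.5% and 75.4% in Kelly.

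Further inhibitors of the pathway were measured beside SMAD6 and BAMBI. SMAD7, the other inhibitory SMAD, rose in all 4 comparisons, by 0.45 and 1.93 in BE2C and 0.78 and 1.54 in Kelly, where the rule named it for Kelly and its BE2C values were added after they were seen. NBL1, which binds BMPs outside the cell, rose with both hairpins in BE2C (0.46 and 1.17) and with shAhR-1 in Kelly (0.56), and SKI, a corepressor of SMADs, fell in all 4 comparisons (−0.68 and −0.54 in BE2C, −0.20 and −0.44 in Kelly). Of 13 inhibitors measured in BE2C, 3 rose and 3 fell with shAhR-1 and 8 rose and 3 fell with shAhR-2, where 52.3% and 75.1% of all genes were called. Of 15 in Kelly, 5 rose and 4 fell, then 5 rose and 7 fell, where 60.5% and 75.4% were. List medians were −0.01 and 1.46 in BE2C and 0.33 and 0.07 in Kelly.

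Other textbook targets of BMPs moved differently in the lines with shAhR-2. In BE2C 9 of 10 measured rose and 0 fell, with a median of 1.35, where 38.0% of all genes rose and 37.2% fell. In Kelly 2 of 9 rose and 5 fell, with a median of −0.26, where 37.2% rose and 38.2% fell. With shAhR-1, 2 rose and 3 fell in BE2C (25.2% and 27.1% of all genes), and 3 rose and 1 fell in Kelly (29.6% and 31.0%). The response to shAhR-2 itself differed between the lines for 9 of 10, with 8 further upward in BE2C, where 28.8% of genes were. MSX2, a homeobox gene, rose in BE2C with both hairpins (0.24 and 1.33), and in Kelly, where it was added after its values were seen, it rose with shAhR-1 (1.20) and fell with shAhR-2 (−2.34). GATA2, also added later, rose with shAhR-2 in both lines (0.47 ± 0.028, adjusted p = 2.57e-16, and 1.29 ± 0.025, adjusted p = 3.22e-42). With shAhR-1 it fell in BE2C (−0.19 ± 0.028, adjusted p = 9.39e-07) and was not called in Kelly (−0.05 ± 0.025, adjusted p = 0.06).

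Markers of other cell types moved with hairpin groups. The summed level of 8 Schwann cell and glial markers was 2.54 to 3.45 CPM in the BE2C controls and 13.4 to 14.1 with shAhR-2, and 2.97 to 3.86 CPM in the Kelly controls and 9.56 to 10 with shAhR-2. It was 2.29 to 3.45 with shAhR-1 in BE2C and 2.63 to 3.06 in the libraries labelled so in Kelly. Of 6 measured 4 rose with shAhR-2 in BE2C, where 38.0% of all genes did, as did 4 of 4 in Kelly, where 37.2% did. CDH19 was at 0 counts in every library and FABP7 in all but 1 control library of Kelly. The sum of 8 fibroblast markers was 96.4 to 101 CPM in the BE2C controls, 105 to 110 with shAhR-1 and 179 to 192 with shAhR-2. The Kelly values were 91.1 to 97.8 in the controls, 52.2 to 60.5 in the libraries labelled shAhR-1 and 80.3 to 82.5 with shAhR-2. COL1A2 and FAP held 2 counts or fewer in every library of both lines. Of 6 fibroblast markers measured in BE2C, 3 rose and 1 fell with shAhR-1 (25.2% and 27.1% of all genes). With shAhR-2, 4 rose (38.0%) and 1 fell (37.2%), LUM, from a mean of 50.9 to 37.0 CPM. Of 5 in Kelly, 1 rose and 2 fell (29.6% and 31.0%), then 0 rose and 3 fell (37.2% and 38.2%). The sum of 6 leukocyte markers stayed at 1.03 CPM or lower in every library. The adrenergic marker sum was below the controls in all 4 hairpin groups. In BE2C it was 3930 to 4050 CPM in the controls, 3350 to 3400 for shAhR-1 and 2030 to 2080 for shAhR-2. Kelly had 7570 to 8160 in the controls, 4000 to 4110 in the libraries labelled shAhR-1 and 4600 to 4700 for shAhR-2. MYCN alone held 2227 to 2295 CPM of this sum in the BE2C controls and 4438 to 4832 in the Kelly controls. Of the 7 markers, 1 rose and 4 fell with shAhR-1 in BE2C (25.2% and 27.1% of all genes). With shAhR-2, 1 rose and 6 fell there (38.0% and 37.2%). In Kelly 1 rose and 5 fell (29.6% and 31.0%), then 0 rose and 7 fell (37.2% and 38.2%). ISL1 rose with both hairpins in BE2C (0.48 and 0.51). The part of these shifts in the changes of the 10 members was not tested.

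The genes most like 5 members were found by Pearson's r of the change in log2 CPM from the mean control, over 12 hairpin libraries and 10796 genes. These 12 libraries fall into 4 groups of 3 and share each line's controls, so r describes 4 group means more than 12 points. For ID1 they were TPRN, PIK3R3 and DLC1 (0.987, 0.987 and 0.986), for ID2 SCG2, SERP1 and NR6A1 (0.996, 0.994 and 0.993), and for ID3 SNRPB, RANGAP1 and MAD2L2 (0.992, 0.99 and 0.99). For BAMBI they were STK39, ADAM10 and LRRFIP1 (0.996, 0.995 and 0.994), and for AMHR2 NBR1, CPT1A and PAPSS1 (0.993, 0.991 and 0.991).

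The members lie on several chromosomes of GRCh38 as GENCODE release 29 places them, all as protein-coding genes. ID1 is at chromosome 20, 31605283 to 31606515 (plus strand), ID2 at chromosome 2, 8678845 to 8684453 (plus), ID3 at chromosome 1, 23557918 to 23559794 (minus) and ID4 at chromosome 6, 19837386 to 19840684 (plus). SMAD6 is at chromosome 15, 66702228 to 66782848, and BAMBI at chromosome 10, 28677342 to 28682939, where BMPR1A also lies, at 86756601 to 86932838, all plus. BMPR1B is at chromosome 4, 94757968 to 95158448, BMPR2 at chromosome 2, 202376936 to 202567751, and AMHR2 at chromosome 12, 53423855 to 53431534, all plus.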

How the data were processed

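Total RNA of 18 libraries was sequenced after removal of ribosomal RNA, per the labels' protocols. The authors deposited 1 table of raw gene counts for each line. Per the submitters' processing notes, CASAVA 1.8.2, STAR 2.7.9a and GRCh38.p7 were used. Not given in the sources used here were the counter, the annotation, the strand setting and the hairpins’ target sites. Even numbers made up 68.3% to 72.5% of the counts from 1 to 20, so both mates of a read pair may have been counted.

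Each line was fitted alone (3 groups of 3) in edgeR 4.0.16 (R 4.3.3) with filterByExpr, TMM, glmQLFit and glmQLFTest. Line comparisons used 1 fit of 6 groups. A gene was called where its p, adjusted after Benjamini and Hochberg over all genes tested, was below 0.05. All 10 members passed the filter in each fit, AMHR2 in BE2C only through its shAhR-2 libraries, and AMHR2 got no test of hairpin effects. CPM uses TMM library sizes, and exon length is the union of exons of all isoforms. Library totals bound the precision, and exact intervals cover counting error only. All of these intervals, for AHR and AMHR2, are too narrow if both mates of a pair were counted. All 10 members matched RefSeq promoter windows. The methods were tested on simulated counts.

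The members and the 10 lists (105 genes) were chosen with earlier results of these data known. Named genes were AHR, the members, ACVR1, ACVR2A, ACVR2B, SMAD1, SMAD4, SMAD5, SMAD9, TCF3, TCF4 and TCF12. To these came up to 2 genes per list, line and direction called the same way with both hairpins, with the largest smaller change and a mean CPM of at least 1. Not every such gene is printed, and some list genes are not reported here. Values of these list genes in the line where the rule did not name them were added after they were seen. The 3 genes most like a member needed a mean CPM of at least 5. Alternatives were a replicate block, RLE size factors, no filter, a minimum mean CPM of 1, leaving out each library, only the groups compared, DESeq2 1.42.0, halved counts and no mitochondrial genes. Python 3.11.15 was used for tables and figures.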

Additional observations from a re-analysis of the deposited data

Results flagged for a closer look

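For 9 members the effect of a hairpin was compared between the lines, and 14 of these 18 differences (change in BE2C minus change in Kelly, log2, quasi-likelihood test of edgeR, adjusted over all genes tested) passed the threshold. Of all 17136 genes tested, 35.7% passed it for shAhR-1 and 54.7% for shAhR-2. With shAhR-1, where no fall of AHR was shown in either line, they were −0.79 for ID1 (adjusted p = 5.67e-10), −0.50 for ID2 (1.16e-11), −0.50 for ID3 (5.92e-05), −2.31 for ID4 (1.72e-09), −0.79 for SMAD6 (1.11e-10), −1.07 for BAMBI (4.05e-11) and −0.21 for BMPR1A (0.00924). The BMPR1A difference was lost without replicate 1 of the Kelly controls (−0.17, adjusted p = 0.0531). With shAhR-2 they were −1.19 for ID1 (5.34e-16), −0.86 for ID2 (1.22e-20), 0.33 for ID3 (0.00471), 1.23 for SMAD6 (8.73e-18), 0.49 for BMPR1A (5.5e-09), 0.73 for BMPR1B (1.84e-10) and 0.13 for BMPR2 (0.0326). The BMPR2 difference rests on the settings: it was 0.12 with RLE size factors (adjusted p = 0.0536) and in DESeq2 (0.0646), 0.05 without a filter (0.555), 0.08 with a minimum mean CPM of 1 (0.167), and 0.08 without replicate 3 of BE2C shAhR-2 (0.184). It was also lost without replicate 1 (0.0642) or 3 (0.0798) of the BE2C controls, replicate 1 of BE2C shAhR-1 (0.0542), replicate 2 of BE2C shAhR-2 (0.059), replicate 1 (0.1) or 3 (0.106) of the Kelly controls, or replicate 1 (0.104) or 2 (0.112) of Kelly shAhR-2.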

How the results depend on the processing

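Of 360 recomputed counts of all genes called, 360 stayed within 1.5 times the reported count, as did 354 of 360 counts of members. The exception was the count of members lower in Kelly with shAhR-2, which went from 2 to 1 with RLE size factors, with a minimum mean CPM of 1 and in DESeq2, and ranged from 1 to 2 on leaving out a library (1 without control replicate 2 or without replicate 1 or 2 of shAhR-2), since BMPR1B was no longer called. Log2 changes that had missed the threshold turned sign on leaving out a library. In BE2C with shAhR-1, ID4 ranged from −0.35 to 0.13 and TCF3 from −0.0096 to 0.049. The line difference ranged from −0.049 to 0.021 for BMPR2 with shAhR-1 and from −0.20 to 0.026 for BAMBI with shAhR-2. Between the hairpins, the range was −0.11 to 0.021 for ACVR2A in BE2C, and in Kelly −0.014 to 0.071 for SMAD1 (−0.0015 with RLE size factors, −0.00146 in DESeq2) and −0.062 to 0.024 for SMAD4. The cause was not tested. Over all alternatives, 1702 member values kept direction and call, 32 lost a call, 7 gained one, 5 turned sign and 9, all of AMHR2 on leaving out a library, moved beyond the spread between replicates (in BE2C with shAhR-2 from 5.64 to 9.23 without control replicate 3, the only control with counts). Over all genes, libraries with the same replicate number did not deviate together (r of −0.0137 to 0.0244, against −0.0409 to 0.0271 for unlike numbers). Such an r cannot exclude a shared batch that touches few genes. A replicate block changed the direction or call of 0 single-gene results. In BE2C with shAhR-1 the block gave 3884 genes higher and 4226 lower, against 3964 and 4270, and it left each count of members as it was. The median of all genes moved by under 0.1 in each comparison and alternative, furthest in BE2C with shAhR-2, from 0.03 to 0.133 without a filter. Depth limits AHR, ID4 in BE2C and AMHR2 in BE2C outside shAhR-2.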
